A study of Mus musculus with 28 samples.

Results

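The immunity-related GTPases (IRG proteins) are described here from 7 genes, Irgm1, Irgm2, Igtp, Iigp1, Tgtp1, Tgtp2 and Ifi47, taken by name from 55487 gene IDs in 28 RNA libraries of mouse macrophages. All 7 had a row in every file, and all 7 passed the filter on low values (at least 1 TPM in at least 4 libraries), as did 13631 genes in all. TPM, RSEM's transcript abundance, is a level per transcript length scaled to the same total in each library. Levels of different genes can therefore be set side by side on it.

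IRG proteins are GTPases that mouse cells make in response to interferon and that act inside the cell against parasites and bacteria living in vacuoles. The regulators, known as the GMS group after residues of their nucleotide-binding loop, sit on the cell's own membranes and hold the other members inactive there. Irgm1, Irgm2 and Igtp (Irgm3) belong to them. The effectors, known as the GKS group, gather on the membrane around a parasite such as Toxoplasma and disrupt it. Iigp1 (Irga6), the Tgtp proteins (Irgb6) and Ifi47 (Irgd) belong to these. In macrophages IFN-γ is the best known inducer, through its receptor, the kinases Jak1 and Jak2, and transcription factors such as Irf1.

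The series asks how uptake of apoptotic T cells changes transcription in macrophages under different polarization. Bone marrow derived macrophages of wild-type mice were cultured for 48 h with IFN-γ, with IL-10 (50 ng/mL each) or without polarization (M0). Per the series' design text, the T cells were regulatory (Treg) or conventional CD4 T cells (Tconv), made apoptotic with ATP/NAD+ and marked with a fluorescent antibody against CD4. The macrophages were afterwards sorted by what they had taken up. The 7 groups of 4 libraries were M0 and, for each cytokine, Treg-phagocytic, Tconv-phagocytic and non-phagocytic macrophages. The design text lists the non-polarizing condition among the co-cultures, but the M0 labels name neither T cells nor uptake, so in any contrast to M0 the cytokine cannot be told apart from co-culture and sorting. Age, sex and strain are not given in the sources used here, nor is it said whether libraries of a group came from separate mice or cultures, so p-values measure the spread between these libraries only. The dye of the antibody in the titles (BV421 or Ax647) and in the library names disagreed for all 8 Treg-phagocytic libraries and for 0 Tconv-phagocytic ones.

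Between 14148 and 18457 genes per library had a value above 0, with 14148 to 16295 in the 12 IFN-γ libraries. The files hold no read counts, so the total depth behind a TPM value is not known. The median SD between libraries over all genes was 0.25, 0.23 and 0.27 on the log2 scale in the IFN-γ non-phagocytic, Tconv- and Treg-phagocytic groups and between 0.10 and 0.12 in the other 4. Macrophage markers were high throughout: the summed TPM of 8 genes, among them Csf1r, Cd68 and Adgre1, was 16527 to 21299. Most of the sum came from other genes of the list. In IFN-γ non-phagocytic libraries Cd68, Adgre1 and Csf1r averaged 1362, 509 and 407 TPM, beside a mean sum of 17631. Single markers were not level. In IFN-γ non-phagocytic against M0 libraries 6 of the 8 were lower and 2 higher, with Csf1r at 407 against 637 TPM on average. T cell RNA was measured in all groups. The summed TPM of 14 T cell markers was 55.5 to 217 in the 16 libraries without IFN-γ and 477 to 907 in the 12 with it, and no marker was at 0 in all libraries of a group. T cells can express IRG genes themselves, and these values are given beside the results they move with.

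Along the genome (GRCm38, GENCODE vM21), 6 of the 7 genes lie on chromosome 11 in a pair of clusters. Irgm1 (chr11:48861968-48871683, ENSMUSG00000046879), Tgtp1 (chr11:48985327-48994172, ENSMUSG00000078922), Tgtp2 (chr11:49057194-49064206, ENSMUSG00000078921) and Ifi47 (chr11:49076587-49096974, ENSMUSG00000078920) share a stretch of 235 kb with 4 further IRG genes. Igtp (chr11:58199556-58207591, ENSMUSG00000078853) and Irgm2 (chr11:58199618-58222782, ENSMUSG00000069874) lie within 35 kb of each other with Gm12250 (Irgb10). All 7 members are annotated as protein coding.

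The promoter sequences are shown for a kind of stretch upstream of the start that only some members share. Igtp, Tgtp1 and Tgtp2, which rose with IFN-γ, have it, and so does Irgm2, which did not rise. Irgm1 and Ifi47 rose as well and lack it. RefSeq promoter windows (GRCm38.p6, 250 bases before to 50 after the start) were found for 6 of the 7. The windows below are printed 5′ to 3′ on the gene's strand, with capitals marking matches to GAAA, any 2 bases, GAAA (the core of the interferon-stimulated response element, ISRE, bound by IRF proteins among others) and TTCNNNGAA (the gamma-activated site, GAS). Both strands were searched, and the second motif reads the same on both.
Irgm1, chr11:48871425-48871480, minus strand: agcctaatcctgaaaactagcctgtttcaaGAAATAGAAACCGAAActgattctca
Irgm2, chr11:58214883-58214932, plus strand: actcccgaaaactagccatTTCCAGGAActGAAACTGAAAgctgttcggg
Igtp, chr11:58199492-58199541, plus strand: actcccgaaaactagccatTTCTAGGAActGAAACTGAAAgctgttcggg
Tgtp1, chr11:48992304-48992353, minus strand: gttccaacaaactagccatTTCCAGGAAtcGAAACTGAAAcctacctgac
Tgtp2, chr11:49064263-49064312, minus strand: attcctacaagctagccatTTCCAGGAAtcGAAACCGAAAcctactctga

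The ISRE-type match was present in 5 of the 6 windows and the GAS-type match in 4, always together with the ISRE-type match. Of all 32851 promoter windows of the same length, 3.44% held the first, 8.30% the second and 0.454% both. In Irgm2, Igtp, Tgtp1 and Tgtp2 the GAS-type match stood upstream of the ISRE-type match with the same gap of 2 bases. Irgm1 held a pair of overlapping ISRE-type matches, from 30 to 15 bases before its start, and no GAS-type match. The Ifi47 window held neither. Over the whole windows, 247 of 264 bases aligned without a gap were identical between Irgm2 and Igtp, and 224 of 269 between Tgtp1 and Tgtp2. With gaps counted, identity was 73.5% and 67.7%. For the other pairs it was between 46.4% (Irgm1 and Tgtp1) and 53.9% (Irgm1 and Igtp). A match is a stretch of letters and not a measured binding site.

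**Figure D1:**
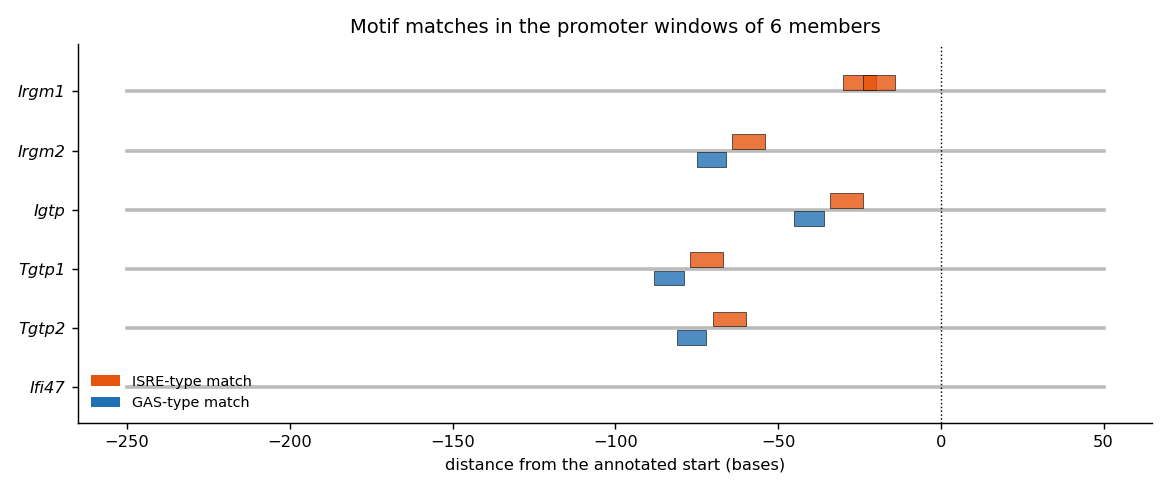
Positions of ISRE-type (orange) and GAS-type (blue) matches in the 300-base promoter windows of 6 genes (x axis: bases from the annotated start; grey line: the window searched). The GAS-type match stands just upstream of the ISRE-type match in Irgm2, Igtp, Tgtp1 and Tgtp2, Irgm1 has overlapping ISRE-type matches, and Ifi47 has none.

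Near-identical copies limit how far some members can be told apart. Of the 50-base words in the annotated transcripts of Tgtp1, 79.4% also occur in Tgtp2, and of those of Tgtp2, 85.8% occur in Tgtp1, so the split of reads between them is uncertain and their sum is given too. Gm12185 overlaps Tgtp1 on the same strand. The annotated Irgm2 gene begins within Igtp and overlaps it on the same strand, and 11.8% of the words of Igtp occur in Irgm2. For Irgm1, Iigp1 and Ifi47, 0.310%, 1.69% and 2.54% of words were shared with any other gene.

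The first comparison set IFN-γ against M0 in non-phagocytic macrophages and asked which IRG genes were higher with the cytokine. Irgm1, Igtp, Iigp1, Tgtp1, Tgtp2 and Ifi47 rose, with no overlap between the libraries of the groups, and Irgm2 stayed at its M0 level within the spread. The rises were 1.79 to 2.89 on the log2 scale. They were called in 6 of 7 members, against 52.9% of all genes tested (27.1% higher), so a call by itself says little here. How many of all genes lacked overlap was not counted, here or below. A lack of overlap is therefore given as description only. The members' median difference was 1.90 and that of all genes -0.00. Library scaling holds the latter near 0 in every comparison, so it is not a result. Differences are on a log2 scale after library scaling and addition of 1 to each value, which understates those of genes with low TPM. They were tested with limma and called where the Benjamini-Hochberg adjusted p over all genes was under 0.05.

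Among the regulators, Irgm1, which is needed for control of mycobacteria in mice, was at 21.36, 20.62, 22.47 and 21.69 TPM in M0 and at 63.18, 62.36, 63.48 and 62.98 TPM in IFN-γ non-phagocytic libraries. All IFN-γ values lay well above the M0 values and close together, at 63.0 ± 0.474 against 21.5 ± 0.767 TPM (SD, n = 4). The log2 difference was 1.79 (SE 0.0512, limma adjusted p 6.62e-08).

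Igtp, a regulator found on the endoplasmic reticulum and lipid droplets, was at 12.16, 8.82, 9.71 and 10.04 TPM in M0 and at 34.00, 33.08, 34.49 and 25.61 TPM with IFN-γ. The lowest IFN-γ library stood apart from the other 3, and all 4 were above M0. The log2 difference was 1.82 (SE 0.123, limma adjusted p 4.38e-06).

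Irgm2, a regulator found at the Golgi, was at 7.71, 6.33, 6.91 and 6.58 TPM in M0 and at 6.99, 4.23, 5.42 and 5.28 TPM with IFN-γ. The groups overlapped. The log2 difference was -0.05 with a 95% interval of -0.38 to 0.29 (limma adjusted p 0.82). Over all 28 libraries Irgm2 ranged from 4.23 to 7.93 TPM. Its interval leaves out a rise of the size seen in any of the other 6 genes, within the limit that reads shared with Igtp set.

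Of the effectors, Iigp1 (chr18:60376027-60392634, ENSMUSG00000054072), which loads onto parasite vacuoles, was near 0 in M0 at 0.48, 0.19, 0.30 and 0.12 TPM. It reached 8.08, 7.39, 7.42 and 6.81 TPM with IFN-γ. Its log2 difference, 2.89 (SE 0.138, limma adjusted p 5.64e-07), depends on the value added before the logarithm, being 4.67 with 0.1 and 1.33 with 5 in place of 1, so its size is not ranked against the others. Tgtp2, an effector that acts on the vacuole together with Iigp1, went from 1.56, 1.19, 2.41 and 1.49 TPM to 10.59, 16.86, 11.74 and 12.09 TPM. Its near copy Tgtp1 went from 0.68, 0, 0.19 and 0.47 TPM to 4.61, 3.25, 7.62 and 4.62 TPM. Both pairs of groups were apart, with log2 differences of 2.60 (SE 0.184, limma adjusted p 6.09e-06) for Tgtp2 and 2.31 (SE 0.246, adjusted p 7.16e-05) for Tgtp1. With 5 added they were 1.55 and 0.98. Their sum rose from 2.00 ± 0.599 to 17.8 ± 2.29 TPM (SD, n = 4), a log2 difference of 2.90 (limma adjusted p 1.79e-06).

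Ifi47, the effector with the highest level without the cytokine, was at 11.50, 9.52, 11.53 and 8.04 TPM in M0 and at 34.18, 31.99, 33.02 and 33.00 TPM with IFN-γ. The log2 difference was 1.90 (SE 0.110, limma adjusted p 1.78e-06).

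**Figure D2:**
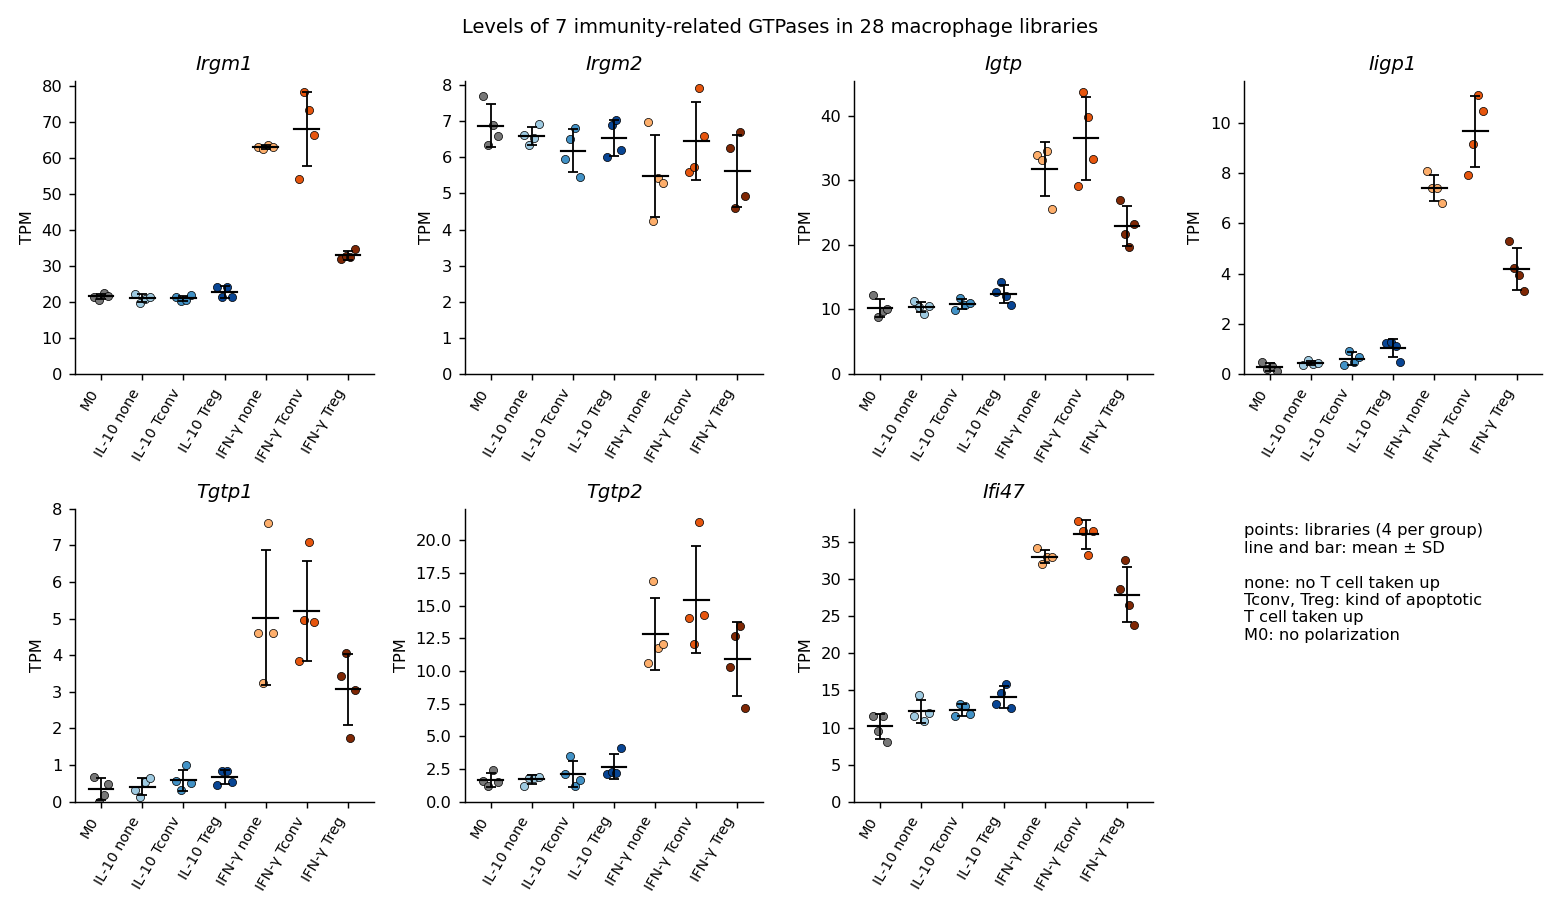
TPM of each of the 7 genes (panels, y axis from 0) in the 4 libraries of each group (points; line and bar: mean ± SD). For Irgm1, Igtp, Iigp1, Tgtp1, Tgtp2 and Ifi47 every IFN-γ library lies above every M0 and IL-10 library, with the Treg-phagocytic group lowest of the IFN-γ groups by mean; Irgm2 stays between 4.23 and 7.93 TPM.

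These rises moved with other differences between the groups. All 14 T cell markers were also higher in IFN-γ non-phagocytic than in M0 libraries (median log2 difference 3.07), as were all 6 Treg markers (2.44) and all 4 B cell markers that passed the filter (1.32), while 4 of 5 stromal markers were lower (median -3.50). The summed TPM of the T cell markers was 477 to 835 against 55.5 to 146, and none of the 14 was at 0 throughout a group. Cd3e, a chain of the T cell receptor complex, was at 21.7 ± 6.61 against 2.21 ± 1.05 TPM (SD, n = 4). Of 8 macrophage markers, 6 were lower and 2 higher (median -0.34). The part of T cell RNA and of these markers in the IRG levels was not tested. In a bulk sample, fewer cells of a type and less RNA per cell cannot be told apart. Scaling moved this comparison too, since the mean log2 scaling factor was 0.15 in M0 and -0.15 in IFN-γ non-phagocytic libraries. Without scaling, all 6 calls were kept.

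With IL-10 no member was called. In IL-10 non-phagocytic libraries 0 of 7 members were called against M0 (limma, 0 at an unadjusted p under 0.05), while 26.5% of all genes were, and log2 differences ran from -0.06 to 0.23. The intervals allow small rises: the upper bound was 0.07 for Irgm1 (adjusted p 0.56) and 0.51 for Ifi47 (limma adjusted p 0.211), the gene with the highest estimate. With a variance weight per group Ifi47 alone was called (adjusted p 0.0372).

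IFN-γ was then set against IL-10 within macrophages of the same uptake, where both arms come from sorted co-cultures. The non-phagocytic IFN-γ libraries are those already set against M0. In non-phagocytic macrophages 6 of 7 members were higher with IFN-γ, by 1.67 (Ifi47) to 2.72 (Iigp1) on the log2 scale, against calls in 51.1% of all genes (26.2% higher). In Tconv-phagocytic macrophages the same 6 members were higher, by 1.64 (Ifi47) to 2.85 (Iigp1), against 52.1% of all genes (27.1% higher). In Treg-phagocytic macrophages these 6 were higher as well, by 0.81 (Irgm1; 0.52 without scaling) to 1.96 (Tgtp2), against 36.7% of all genes (18.7% higher). Irgm2 was not called in any of them, with log2 differences of 0.02, 0.20 and 0.06. T cell markers moved with all 3 comparisons: 14 of 14 were higher with IFN-γ in each, with medians of 2.55, 2.33 and 1.98 without uptake, with Tconv and with Treg. All 6 Treg markers were higher in each as well (medians 2.16, 2.05 and 1.67), and 4 of 5 stromal markers were lower in each (medians -3.00, -4.05 and -2.32). Of 8 macrophage markers, 6, 5 and 4 were lower and 2, 1 and 2 higher (medians -0.26, -0.32 and -0.27). The part of these differences in the IRG values was not tested.

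**Figure D3:**
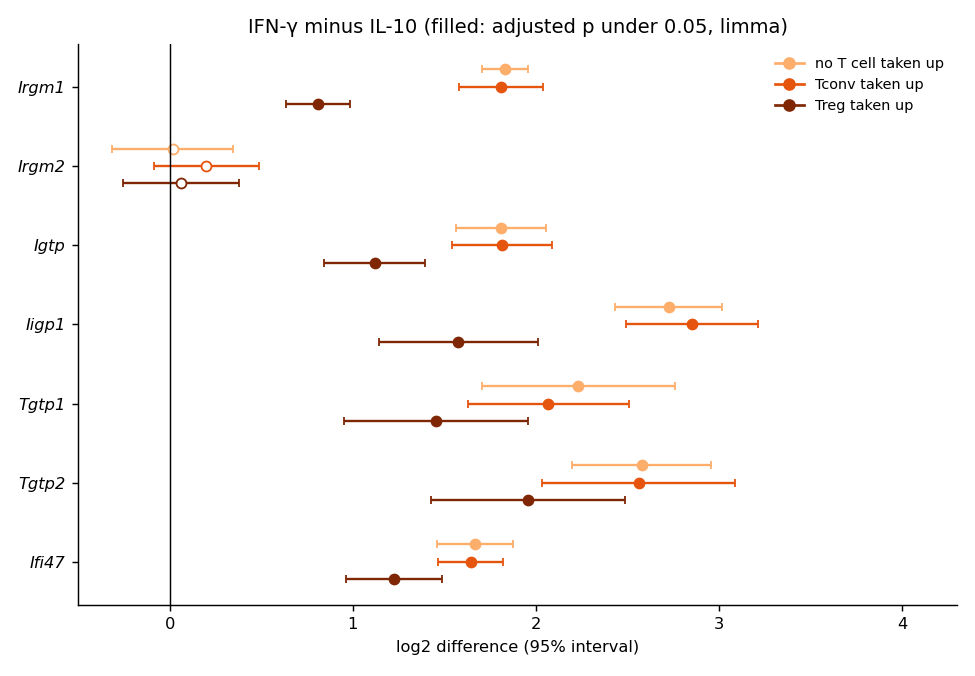
Log2 difference between IFN-γ and IL-10 libraries (x axis, points with 95% intervals; filled where the adjusted p was under 0.05) for each gene in macrophages that took up no T cell, Tconv or Treg. Irgm1 stands at 1.83 and 1.81 without uptake and with Tconv and at 0.81 with Treg, and Irgm2 stands near 0 in all 3.

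The IFN-γ difference was smaller after uptake of Treg for 3 members, by a test of the difference of differences. Set against Tconv-phagocytic macrophages, the IFN-γ minus IL-10 difference of Irgm1 in Treg-phagocytic ones changed by -1.0003 on the log2 scale (SE 0.130, limma adjusted p 0.000119). That of Iigp1 changed by -1.28 (SE 0.250, limma adjusted p 0.00274; -0.74 with 5 added) and that of Igtp by -0.70 (SE 0.175, limma adjusted p 0.0135). The estimates for Ifi47, Tgtp1 and Tgtp2 were -0.42, -0.61 and -0.60 and missed the threshold (limma adjusted p 0.0575, 0.206 and 0.275), although without scaling Ifi47 was called (adjusted p 0.0164). The sum of Tgtp1 and Tgtp2 gave -0.63 (limma adjusted p 0.148). An unadjusted p under 0.05 was found for 4 of 7 members, beside 3687 of 13631 genes (limma). Calls were made in 13.6% of all genes for this contrast (7.75% lower).

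Set against non-phagocytic in place of Tconv-phagocytic macrophages, the Treg contrast again called Irgm1 (-1.02, limma adjusted p 5.52e-06), Iigp1 (-1.15, adjusted p 0.00417; -1.82 with 0.1 and -0.57 with 5 added) and Igtp (-0.69, adjusted p 0.0137), against 9.47% of all genes (6.21% lower). The sum of Tgtp1 and Tgtp2 gave -0.79 and just missed the threshold (limma adjusted p 0.0501). An unadjusted p under 0.05 was found for 6 of 7 members, beside 3136 of 13631 genes (limma). This contrast shares its Treg-phagocytic libraries with the one before. Between Tconv-phagocytic and non-phagocytic macrophages the IFN-γ difference was called different in 0 of 7 members (limma, 0 at an unadjusted p under 0.05) and in 1.68% of all genes, with estimates from -0.17 (Tgtp1) to 0.18 (Irgm2). In the Treg against non-phagocytic contrast 5 of 14 T cell markers were also lower (median -0.65), and in the Treg against Tconv contrast 0 of 14 were called. Of 8 macrophage markers, 5 were higher and 1 lower in the former and 6 higher and 1 lower in the latter. Of 5 stromal markers, 1 was higher in the former (median 0.81) and 3 in the latter (median 1.72). The part of these markers in the contrasts was not tested.

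Within the IFN-γ libraries, the kinds of uptake were compared directly. Treg-phagocytic macrophages had lower Irgm1, Igtp and Iigp1 than Tconv-phagocytic ones, 3 of 7 members against 12.7% of all genes (7.30% lower), and none was higher. The libraries of Ifi47 did not overlap either, but it was not called. The members' median log2 difference was -0.52 and that of all genes, which scaling holds near 0, was 0.04.

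Irgm1 was at 31.94, 32.65, 32.50 and 34.83 TPM in Treg-phagocytic and at 54.28, 78.30, 73.19 and 66.44 TPM in Tconv-phagocytic libraries. The highest Treg-phagocytic library stayed far below the lowest Tconv-phagocytic one, and the 4 Treg-phagocytic values lay within a narrow band. The log2 difference was -0.89 with a 95% interval of -1.14 to -0.64 (limma adjusted p 0.00258). In the IL-10 arm the same genes' groups overlapped, with Irgm1 at 24.03, 21.46, 24.25 and 21.42 TPM after Treg and at 21.35, 20.29, 20.58 and 21.85 TPM after Tconv uptake.

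Iigp1 was at 5.29, 4.21, 3.93 and 3.29 TPM in Treg-phagocytic and at 7.92, 9.15, 11.12 and 10.48 TPM in Tconv-phagocytic libraries with IFN-γ. These groups were apart too, by -0.95 on the log2 scale (95% interval -1.34 to -0.57, limma adjusted p 0.00907). Igtp was at 27.01, 21.66, 19.66 and 23.19 TPM against 29.18, 43.64, 39.85 and 33.33 TPM. Here the closest libraries of the groups were near each other, and the difference of -0.52 (95% interval -0.85 to -0.20, limma adjusted p 0.0471) lay close to the threshold. It was lost without any 1 of 7 of the 8 libraries (adjusted p 0.0515 to 0.123), kept without Tconv-phagocytic BV421-1, and lost with either reading of the dye as covariate (0.0676 for the titles, 0.0675 for the library names).

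For the other effectors the difference was smaller than the spread allows to call. Ifi47 was at 28.66, 32.61, 26.49 and 23.82 TPM with Treg and at 37.86, 36.53, 33.27 and 36.55 TPM with Tconv (log2 difference -0.25, limma adjusted p 0.171). Tgtp2 was at 10.32, 12.66, 13.48 and 7.18 TPM against 14.09, 12.10, 21.41 and 14.30 TPM (-0.36, adjusted p 0.348 by limma). Tgtp1 was at 3.44, 4.05, 1.74 and 3.04 TPM against 3.85, 4.95, 7.10 and 4.91 TPM (-0.53, adjusted p 0.215 by limma). The libraries overlapped for each Tgtp gene, whereas those of their sum did not, although the sum was not called either (13.98 ± 2.78 against 20.7 ± 5.30 TPM, SD, n = 4; limma adjusted p 0.214). Irgm2 was at 6.25, 4.61, 6.69 and 4.93 TPM against 5.59, 5.73, 7.93 and 6.60 TPM and overlapped as well (-0.07, 95% interval -0.46 to 0.32).

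Against IFN-γ non-phagocytic macrophages, the same Treg-phagocytic libraries were lower in Irgm1 and Iigp1, 2 of 7 members against 8.30% of all genes (5.29% lower). Irgm1 differed by -0.84 (95% interval -0.98 to -0.70, limma adjusted p 0.000515), with every Treg-phagocytic library below the 4 non-phagocytic ones at 62.36 to 63.48 TPM. Iigp1 differed by -0.66 (95% interval -1.02 to -0.30, limma adjusted p 0.041) without overlap. With 5 added the difference was -0.42. Its call was lost without any 1 of 7 of the 8 libraries (adjusted p 0.0732 to 0.102) and kept without Treg-phagocytic Ax647-1. Igtp differed by -0.38 (limma adjusted p 0.116; called in 1 model of all libraries, adjusted p 0.017), and the log2 differences of Tgtp1, Tgtp2 and Ifi47 were -0.51, -0.16 and -0.17.

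After uptake of Tconv no member was called with IFN-γ. Between IFN-γ Tconv-phagocytic and non-phagocytic macrophages 0 of 7 members were called (limma, 0 at an unadjusted p under 0.05), as against 0.00734% of all genes, which is 1 gene. Estimates ran from 0.03 (Tgtp1) to 0.29 (Iigp1), all above 0. The 95% interval for Irgm1 was -0.18 to 0.28 and that for Iigp1 -0.01 to 0.60. The spread of the Tconv-phagocytic group was wide for Irgm1, at 68.1 ± 10.4 TPM against 63.0 ± 0.474 TPM without uptake (SD, n = 4).

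**Figure D4:**
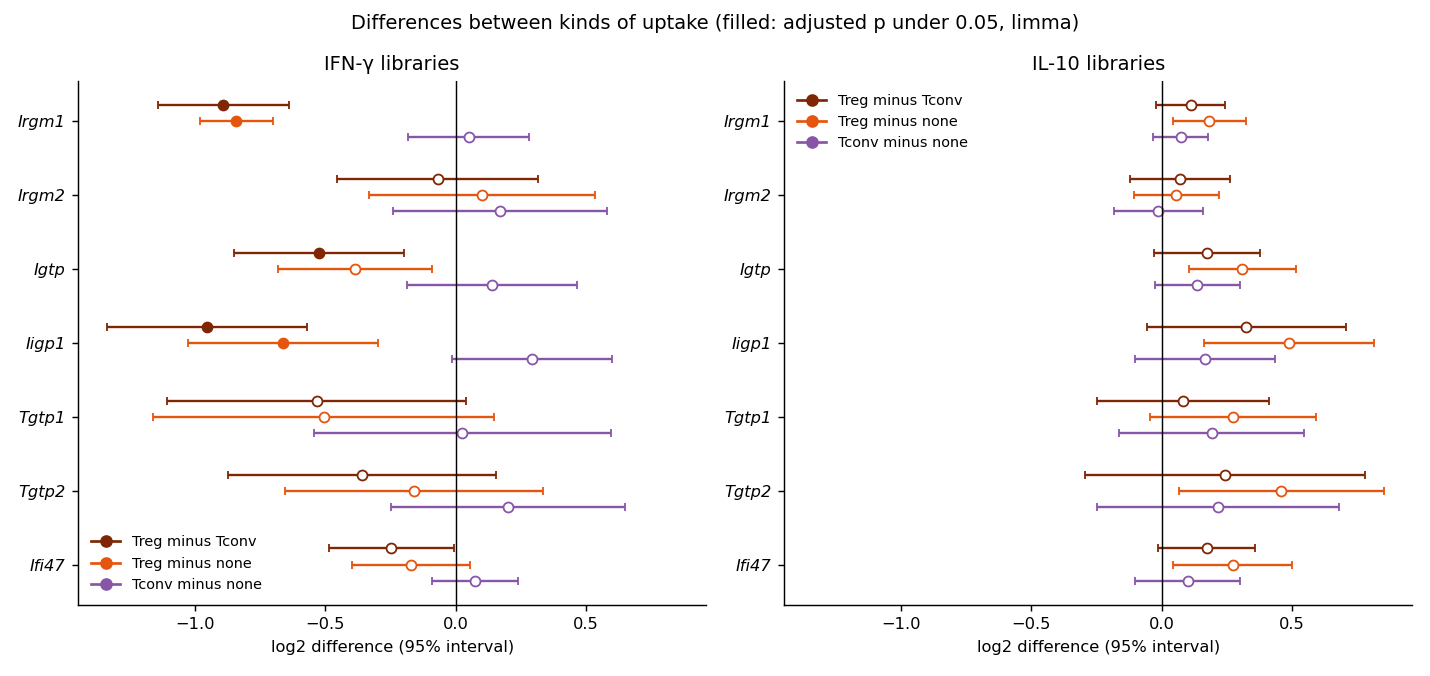
Log2 differences between kinds of uptake (x axis, points with 95% intervals; filled where the adjusted p was under 0.05) for each gene with IFN-γ (left) and IL-10 (right). With IFN-γ, Irgm1, Igtp and Iigp1 are lower after Treg than after Tconv uptake; with IL-10 no point is filled.

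In the direct IFN-γ comparisons where these genes were lower, no T cell marker was called lower. In IFN-γ Treg- against Tconv-phagocytic libraries 1 of 14 was called, and it was higher (median 0.20), and against non-phagocytic libraries 0 of 14 were called (median 0.26, all 14 estimates above 0). Their summed TPM was 561 to 907 in Treg-phagocytic, 579 to 752 in Tconv-phagocytic and 477 to 835 in non-phagocytic IFN-γ libraries, so these ranges overlapped. The summed TPM of 8 macrophage markers was 20778 to 21299 in Treg-phagocytic, 16527 to 18860 in Tconv-phagocytic and 17135 to 17860 in non-phagocytic IFN-γ libraries, without overlap between the first and the others. Most of each sum came from genes other than Csf1r, Cd68 and Adgre1. Of the 8, 5 were higher and 1 lower in Treg- than in Tconv-phagocytic libraries, and 6 were higher and 1 lower than without uptake. Of the stromal and Treg markers 0 were called in either comparison. The markers' part in the result was not tested.

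With IL-10 the estimates after Treg uptake pointed the other way. Against IL-10 non-phagocytic macrophages, the members other than Irgm2 had estimates above 0 in Treg-phagocytic ones, from 0.18 (Irgm1) to 0.49 (Iigp1). The estimate for Irgm2 was 0.06, although its mean TPM before scaling was lower (6.54 against 6.60). Of the 7, 0 were called (limma), 5 had an unadjusted p under 0.05, and 11.4% of all genes were called. Iigp1 was at 1.24, 1.28, 1.13 and 0.49 TPM against 0.37, 0.55, 0.41 and 0.43 TPM, so 3 of 4 libraries were above the others and 1 was among them (limma adjusted p 0.064). Tgtp2, at 2.09, 2.31, 2.20 and 4.08 TPM against 1.23, 1.84, 1.85 and 1.90 TPM, was the one member without overlap (limma adjusted p 0.134).

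This comparison depended on the model. With a variance weight per group, Irgm1, Igtp, Iigp1 and Ifi47 were called higher (limma adjusted p 0.013, 0.0136, 0.00528 and 0.0425). Without Treg-phagocytic BV421-2, Igtp and Iigp1 were called (adjusted p 0.0362 and 0.00811 by limma). All 14 T cell markers were called higher here (median 1.05, summed TPM 187 to 217 against 86.2 to 99.6), as were 4 of 6 Treg markers (0.73) and 3 of 4 B cell markers that passed the filter (0.64), while 4 of 5 stromal markers were lower (-1.28). The markers' part in the estimates was not tested. Between IL-10 Tconv-phagocytic and non-phagocytic macrophages 0 of 7 members were called, with log2 differences of -0.01 to 0.22, against 6.02% of all genes. Between IL-10 Treg- and Tconv-phagocytic macrophages 0 of 7 were called, with differences of 0.07 to 0.32, against 1.40% of all genes. Neither had a member at an unadjusted p under 0.05 (limma).

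The order of the groups by mean TPM was the same at the top for the 6 genes that rose: IFN-γ Tconv-phagocytic, IFN-γ non-phagocytic, IFN-γ Treg-phagocytic and then IL-10 Treg-phagocytic. In all 6 the first and second of these overlapped, and the lowest IFN-γ group did not overlap the highest IL-10 group. The IFN-γ Treg-phagocytic group lay clear of both neighbours for Irgm1 (32.98 ± 1.27 TPM) and Iigp1 (4.18 ± 0.834 TPM) (SD, n = 4). For Igtp, Tgtp1, Tgtp2 and Ifi47 it overlapped the non-phagocytic IFN-γ group. The M0 and IL-10 groups overlapped each neighbour in this order for all 6.

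The summed TPM of the 7 genes shows the family as a whole. It was 51.0 ± 4.14 in M0, 52.8 ± 1.61, 53.8 ± 1.98 and 60.2 ± 3.17 in IL-10 non-phagocytic, Tconv- and Treg-phagocytic libraries, and 159 ± 5.71, 177 ± 18.9 and 108 ± 6.19 in the corresponding IFN-γ libraries (SD, n = 4 each). The IFN-γ Treg-phagocytic group thus lay between, at 100.28 to 112.91 TPM, without meeting the others.

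The make-up of that sum was also compared. Effectors (Iigp1, Tgtp1, Tgtp2 and Ifi47) held 24.2% ± 2.67 of it in M0, 36.8% ± 0.918 in IFN-γ non-phagocytic, 37.7% ± 3.61 in IFN-γ Tconv-phagocytic and 42.7% ± 4.29 in IFN-γ Treg-phagocytic libraries (SD, n = 4). The 3 IFN-γ groups overlapped, with 37.2% to 47.6% after Treg uptake, up to 41.7% after Tconv uptake and up to 37.6% without uptake. Irgm1 held 42.4% ± 2.83 in M0, 39.8% ± 1.42 in IFN-γ non-phagocytic, 38.2% ± 2.31 in IFN-γ Tconv-phagocytic and 30.8% ± 2.89 in IFN-γ Treg-phagocytic libraries, the last without overlap with the others. Irgm2 went from 13.5% ± 0.417 in M0 to 3.45% ± 0.686 in IFN-γ non-phagocytic libraries, where its own level did not differ beyond the spread. The ratio of Igtp to its neighbour Irgm2 was 1.48 ± 0.0905 in M0 and 5.97 ± 1.42 in IFN-γ non-phagocytic libraries. The ratio of Ifi47 to Irgm1 was 0.525 ± 0.0119 in IFN-γ non-phagocytic, 0.542 ± 0.112 in Tconv-phagocytic and 0.849 ± 0.133 in Treg-phagocytic libraries, where the lowest Treg-phagocytic value (0.684) lay under the highest Tconv-phagocytic one (0.697). These ratios are within libraries and are given as a description, with no test.

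How closely the members moved together depended on which libraries were taken. Over all 28 libraries the Pearson correlation of log2 levels with Irgm1 was 0.93 to 0.97 for Igtp, Iigp1, Tgtp1, Tgtp2 and Ifi47 and 0.25 for Irgm2, but these libraries fall into IFN-γ and other clusters. Over the 12 IFN-γ libraries it was 0.88 for Iigp1, 0.83 for Igtp, 0.65 for Tgtp1, 0.59 for Ifi47, 0.34 for Tgtp2 and -0.01 for Irgm2, with the libraries' uptake groups and scaling in common. Genes were ranked by likeness to the mean of the 7 (r of standardized log2 levels, mean of at least 5 TPM). The members and genes with Gm-number or Rik names were left out. The top 5 over all libraries were H2-K2, Gbp6, N4bp2l1, Clk1 and Ccl5, at 0.979 to 0.973. Within the IFN-γ libraries they were Peak1, Cntrl, Glyr1, Btaf1 and Casc3, at 0.951 to 0.935. No gene is in both of these top 5, and lower ranks were not compared.

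Of 10 further IRG genes, 7 passed the filter. In IFN-γ non-phagocytic against M0 macrophages 3 were higher and 1 lower. Of all genes, 52.9% were called (27.1% higher, 25.9% lower), so the count itself says little. Gm4951 (Ifgga2) went from 0.155 ± 0.0794 to 5.47 ± 0.644 TPM and F830016B08Rik (Ifgga4) from 0.0600 ± 0.0216 to 3.86 ± 0.801 TPM (SD, n = 4), log2 differences of 2.63 and 2.31 (limma adjusted p 1.01e-06 and 4.37e-06). Both lie on chromosome 18 near Iigp1. Gm12250 (Irgb10), annotated in this release as a processed pseudogene, rose by 0.71 (limma adjusted p 0.0136). Its libraries overlapped, at 2.43 to 3.88 TPM in M0 and 3.25 to 5.88 TPM with IFN-γ. Irgq, a distant relative, differed by -0.78 (limma adjusted p 0.000453). The neighbours Gm5431, 9930111J21Rik1 and 9930111J21Rik2, which lie between Irgm1 and Tgtp2, were not called, so genes that rose and genes that were not called are interleaved along this cluster.

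Gm4951 and F830016B08Rik were the 2 further IRG genes, of 7 tested, called lower after Treg uptake with IFN-γ. Of all genes, 7.3% were lower than after Tconv uptake and 5.29% lower than without uptake. F830016B08Rik was at 0.528 ± 0.221 against 5.06 ± 1.60 TPM after Tconv uptake and Gm4951 at 1.36 ± 0.892 against 7.78 ± 1.65 TPM (SD, n = 4). Their log2 differences of -1.97 and -1.91 (limma adjusted p 0.00229 and 0.00563) were larger in size than that of any of the 7 members, which was not tested. Against non-phagocytic macrophages they were -1.70 and -1.52 (limma adjusted p 0.00259 and 0.0167). In the IL-10 arm neither was called.

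**Figure D5:**
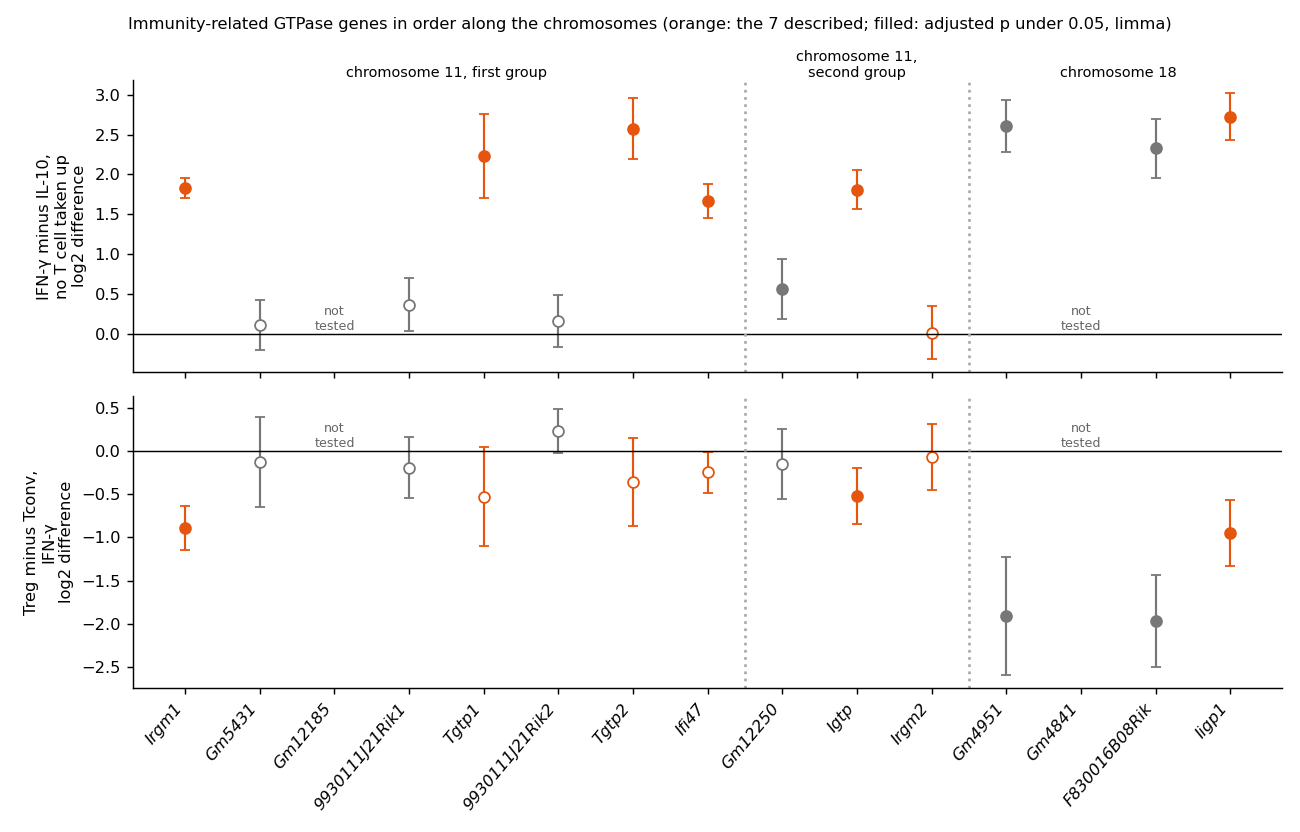
Log2 differences (y axes, with 95% intervals; filled where the adjusted p was under 0.05) of IRG genes evenly spaced in their order along chromosomes 11 and 18 (Gm12185 and Gm4841, which did not pass the filter, are marked as not tested), for IFN-γ against IL-10 without uptake (top) and Treg against Tconv uptake with IFN-γ (bottom). Genes that rose stand beside genes near 0 in both chromosome 11 groups, and the lowest values in the lower panel are those of Gm4951 and F830016B08Rik.

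The genes around the family's induction gave the following counts. Of 13 genes of IFN-γ signalling, 10 were higher and 1 lower in IFN-γ non-phagocytic than in M0 macrophages. Of all genes, 27.1% were higher and 25.9% lower. Irf1 was among the 10 (log2 difference 2.37, limma adjusted p 4.56e-08). The count was not particular to IFN-γ. In IL-10 non-phagocytic macrophages 9 of the 13 were higher than in M0 and 0 lower (13.7% and 12.8% of all genes). Irf1 was at 46.4 ± 2.85 TPM in M0, 68.3 ± 1.84 with IL-10 and 199 ± 11.7 with IFN-γ, both non-phagocytic (SD, n = 4). In Treg- against Tconv-phagocytic IFN-γ libraries 4 of the 13 were lower (7.3% of all genes) and 0 higher. Against non-phagocytic ones 5 were lower (5.29% of all genes) and 0 higher. After Treg uptake Irf1 was at 105 ± 14.4 against 244 ± 39.3 TPM and Stat2, a subunit of a complex that binds ISRE sites, at 23.0 ± 3.48 against 76.8 ± 11.7 TPM (SD, n = 4). Their log2 differences were -1.08 and -1.58 (limma adjusted p 0.00296 and 0.00129), and Irf2 was lower as well (-0.86, limma adjusted p 0.00692). Ifngr1, a chain of the IFN-γ receptor, was at 91.5 ± 6.90 TPM after Treg and 88.3 ± 3.75 TPM after Tconv uptake and was not called. Socs1, an inhibitor of Jak kinases, was at 4.84 ± 1.54 and 4.78 ± 1.04 TPM and was not called.

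The guanylate-binding proteins are larger interferon-induced GTPases that act on the same vacuoles. All 11 were higher in IFN-γ non-phagocytic than in M0 macrophages (median log2 difference 2.01), against 27.1% of all genes. In Treg- against Tconv-phagocytic IFN-γ libraries 6 of 11 were lower (7.3% of all genes) and 0 higher (median -0.86). Among them were Gbp4 (-2.33, limma adjusted p 0.000842) and Gbp2 (-1.54, limma adjusted p 0.00265). Against non-phagocytic libraries 5 of 11 were lower (5.29% of all genes) and 0 higher (median -0.81). With IL-10, 4 of 11 were higher after Treg uptake than without uptake (median 0.37), against 6.91% of all genes. Gbp2 was higher by 0.55 (limma adjusted p 0.00234).

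The Atg8 conjugation genes, whose products help direct IRG proteins to vacuoles rather than to the cell's own membranes, were counted too. Of 10, 4 were higher and 2 lower with IFN-γ than in M0, beside 52.9% of all genes called (median log2 difference 0.10). After Treg against Tconv uptake with IFN-γ, Atg16l1, a subunit of the conjugating complex, was lower at 14.6 ± 1.89 against 33.8 ± 3.88 TPM (SD, n = 4; log2 difference -1.04, limma adjusted p 0.00199), Gabarap was higher by 0.24 (limma adjusted p 0.0225), and the other 8 were not called. Of all genes, 12.7% were called in that comparison (7.3% lower). Of 15 genes of the type I interferon response, 2 were lower and 0 higher there. Against M0, 12 of them were higher and 0 lower with IFN-γ (27.1% of all genes higher).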

How the data were processed

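The data are RNA-seq of 28 libraries, 4 in each of 7 groups taken from the labels' titles. Per the labels' protocols, the authors took poly(A) RNA extracted with RNAiso PLUS and used a NEBNext Ultra II Directional kit. The submitters' processing notes name STAR, RSEM and build mm10; versions and annotation are not given in the sources used here. The deposited files give each gene ID its TPM, per the file headers, with 2 decimals and no counts, so RSEM's split of shared reads is in them. Of 378 library pairs, 0 held identical values, and no library was left out.

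The members and gene lists were chosen with earlier results of these data known. TPM were divided by a scaling factor (unweighted trimmed mean of log2 ratios, 30% of ratios and 5% of levels trimmed), and log2(value + 1) of 13631 genes (1 TPM or more in 4 or more libraries) was fitted with limma 3.58.1 (R 4.3.3; trend) to the groups compared only, tested on simulated data. Genes were called at a Benjamini-Hochberg adjusted p under 0.05. Alternatives were scaling, pseudocount (0.1, 5), filter, 1 model of all libraries, variance weights, dye, replicate blocks and leaving out each library. From the gene lists, at most 4 called genes per comparison with at least 5 TPM were named by size of difference; Gm12250, F830016B08Rik (under 5 TPM against M0 and non-phagocytic), Ifngr1, Socs1, Cd3e and genes named as not called were chosen after their values were seen. Coordinates are from GENCODE vM21 and promoters from RefSeq (GRCm38.p6). A gene of these lists is not reported here.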

Additional observations from a re-analysis of the deposited data

Results flagged for a closer look

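The 3 members whose IFN-γ minus IL-10 difference itself differed between kinds of uptake were listed because the difference of differences was called (limma, Benjamini-Hochberg). Treg- against Tconv-phagocytic macrophages gave -1.0003 for Irgm1, -0.70 for Igtp and -1.28 for Iigp1 on the log2 scale, with adjusted p of 0.000119, 0.0135 and 0.00274. Treg-phagocytic against non-phagocytic macrophages gave -1.02 for Irgm1, -0.69 for Igtp and -1.15 for Iigp1, with adjusted p of 5.52e-06, 0.0137 and 0.00417. Every one of the 4 IFN-γ Treg-phagocytic libraries was nonetheless above every IL-10 library for these 3 genes.

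Single libraries that stood apart within their group of 4 (gap to the nearest library over the group's range above Dixon's critical value at 95%) were found in 3 of 49 sets of values, where chance gives about 1 in 20. Igtp was at 25.61 TPM in IFN-γ non-phagocytic library 4, with the next at 33.08. Tgtp2 was at 1.23 TPM in IL-10 non-phagocytic library 1, with the next at 1.84, and at 4.08 TPM in IL-10 Treg-phagocytic BV421-2, with the next at 2.31.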

How the results depend on the processing

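Of 35 calls for single members, 32 were kept under every alternative run, and over their 666 alternative values 644 kept direction and call, 22 lost the call and 0 turned sign. The 3 that lost it were Iigp1 in IFN-γ Treg-phagocytic against non-phagocytic (9 of 17 alternatives) and Igtp (12 of 20) and Iigp1 (1 of 20) in IFN-γ Treg against Tconv. The 63 results not called gave 18 calls and 52 changes of sign without a call over 1210 values; the cause was not tested. Irgm1's calls were lost nowhere. Tgtp1 was not tested with the filter of 5 TPM.

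The count of members called changed by over 1.5 times as follows. A variance weight per group gave 1 in place of 0 for IL-10 non-phagocytic against M0, 1 in place of 2 for IFN-γ Treg-phagocytic against non-phagocytic and 4 in place of 0 for IL-10 Treg-phagocytic against non-phagocytic, where a filter of 5 TPM gave 1. Leaving out 1 library gave 1 to 2 for IFN-γ Treg-phagocytic against non-phagocytic and 0 to 2 for IL-10 Treg-phagocytic against non-phagocytic. Smaller changes were these. For IFN-γ Treg against Tconv, variance weights, no filter, either dye covariate and leaving out any of 7 libraries gave 2 in place of 3 (Igtp lost). Ifi47 made 4 in place of 3 for the difference of differences: in 1 model of all libraries for both Treg contrasts, without scaling and with the filter of 5 TPM for Treg against Tconv, and without any of 3 and 2 libraries. The model of all libraries also added Igtp for IFN-γ Treg-phagocytic against non-phagocytic, and the filter of 5 TPM gave 5 in place of 6 wherever Tgtp1 had been called. A pseudocount of 5 lowered the cytokine differences of Iigp1, Tgtp1 and Tgtp2 by over 1.5 times.

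A replicate block by file number gave 1 in place of 2 for IFN-γ Treg-phagocytic against non-phagocytic and 1 in place of 3 for IFN-γ Treg against Tconv. Same-numbered libraries did not deviate together over all genes: the correlation of their deviations was -0.07 to 0.09 over all comparisons. This gave no sign that the numbers pair the libraries, but whether they were paired is not known. TPM without counts leave the precision of low values, such as Iigp1 and Tgtp1 without IFN-γ, unknown.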
